A study of Bos taurus with 6 samples.

Results

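The genes described here are the beta subunits of the sodium-potassium ATPase (ATP1B1, ATP1B2 and ATP1B3), the sodium-proton exchangers SLC9A2 and SLC9A3, and the exchanger scaffold SLC9A3R1, measured in rumen epithelial primary cells (REPC). They are 6 of the 32183 genes listed in each expression table and were found by their gene name, each on a single entry. The cells came from a Holstein bull calf of 2 weeks that was fed milk replacer only. The study sequenced RNA of 3 control cultures and of 3 that had received butyrate, a product of rumen fermentation that inhibits histone deacetylases, at 5 mM for 24 h. All 6 cultures derive from this calf as far as the labels say, so the spread between replicates is that between cultures and not between animals.

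The sodium-potassium ATPase exports sodium and imports potassium across the plasma membrane and so maintains the sodium gradient that other transporters use. Its catalytic alpha subunit needs a beta subunit to fold and to reach the membrane, and small FXYD proteins adjust its kinetics. Sodium-proton exchangers bring sodium in and carry protons out, and in the rumen epithelium they work beside the uptake of short-chain fatty acids, while the pump exports the sodium at the opposite side of the cell layer. SLC9A3R1, also called NHERF1, is a PDZ-domain scaffold that ties exchangers and other membrane proteins to the actin cortex through ezrin.

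Expression is given as FPKM, the number of fragments normalized to transcript length and to the fragments of the library, so that levels of different genes can be compared. A difference is the mean log2(FPKM + 0.1) in butyrate minus that in control, a scale that understates changes of genes with low FPKM. Summed over all genes, FPKM was 678035 to 681912 per control culture and 619401 to 629037 per butyrate culture. The median difference over the 15813 genes tested was 0.10 on this log2 scale. The tables hold no counts. The 6 genes were chosen with their butyrate and control values known, so their values are given as a description and without p-values. RNA was extracted from whole cultures, in which more cells of one type and more RNA per cell cannot be told apart.

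Keratins of squamous epithelium were abundant in every culture, and the summed FPKM of 10 markers, among them KRT5, KRT14, KRT17, TP63 and CDH1, was 4685 to 4843 in control and 5288 to 5553 after butyrate, most of it KRT17. Of these markers 5 passed the test described below as higher and 1, KRT5, as lower. Over all tested genes 32.5% passed as higher and 25.9% as lower, which applies to all marker counts. Fibroblast and smooth muscle markers were not absent. The 8 fibroblast markers summed to 1924 to 1982 in control and 2789 to 3038 after butyrate, most of it collagen, and all 7 that could be tested passed the test as higher. The 5 smooth muscle markers summed to 6468 to 6796 in control and 2849 to 3456 after butyrate, with 4 lower and 1 higher. The part of these shifts in the values below was not tested.

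ATP1B3 was the most abundant of the 6 genes and ATP1B2 the one with the largest difference. In control the order of mean FPKM was ATP1B3, SLC9A3R1, ATP1B1, SLC9A3, ATP1B2 and SLC9A2. The first 3 did not overlap with each other or with the rest, whereas the ranges of SLC9A3 and ATP1B2 overlapped and SLC9A2 was listed at 0. After butyrate ATP1B2 stood below ATP1B1 and above both exchangers, whose ranges overlapped.

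**Figure D1:**
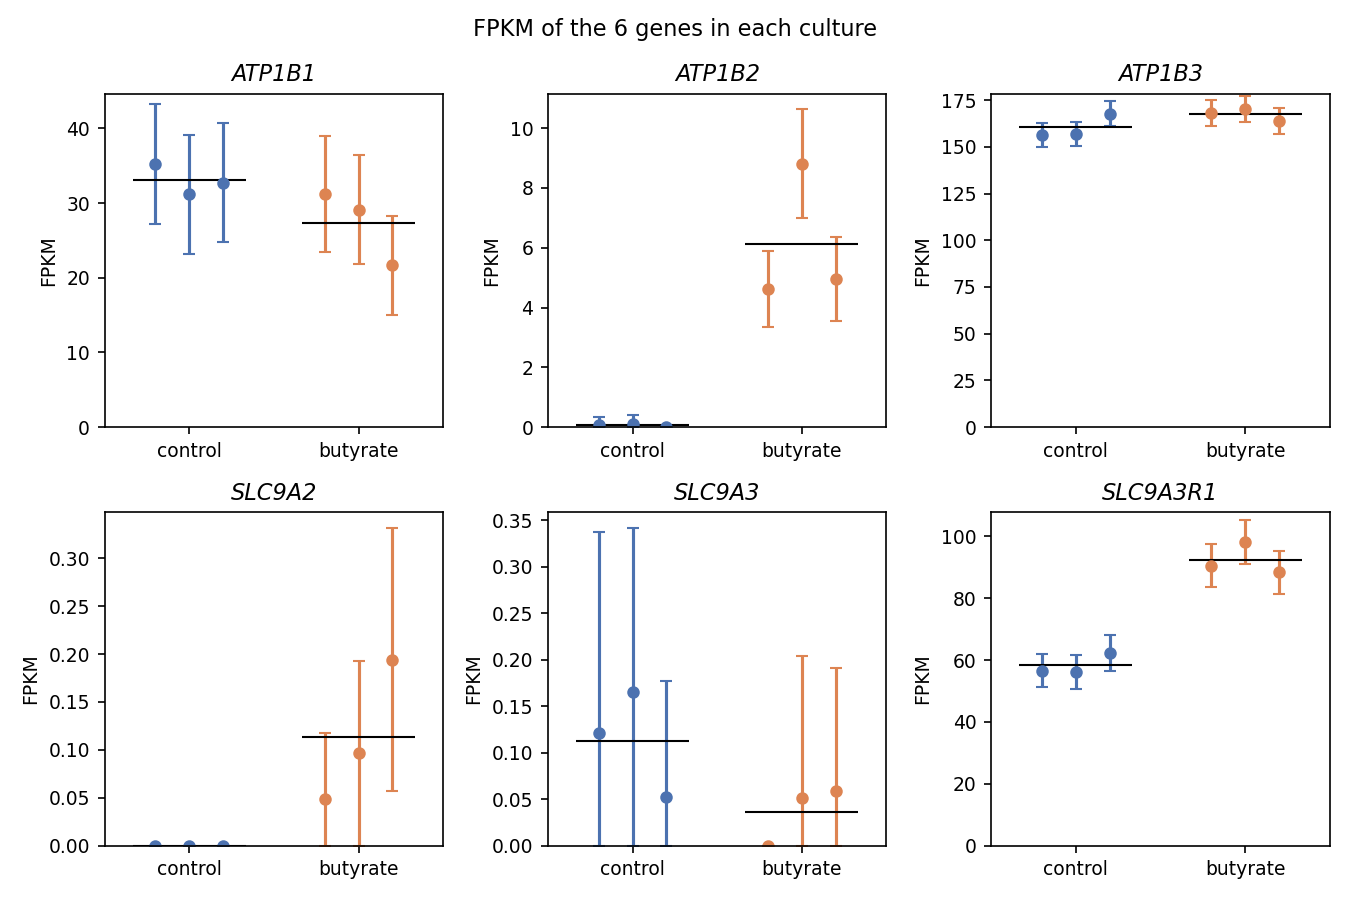
FPKM of each gene (vertical axis, a separate linear scale for each panel) in the 3 control cultures (blue) and the 3 butyrate cultures (orange). Points are cultures, bars are the deposited confidence bounds and black lines are group means. ATP1B2 goes from at most 0.115 to at least 4.64 FPKM, SLC9A3R1 is separated between groups, and ATP1B1 and ATP1B3 overlap.

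ATP1B3, the beta-3 subunit, lies on chromosome 1 from 128050717 to 128085713 in the UMD3.1 coordinates of the tables. Control replicates 1 to 3 had 157, 157 and 168 FPKM, and butyrate replicates 1 to 3 had 168, 170 and 164, the order used for all genes. The groups overlapped, and the means of 160 ± 6.36 (SD, n = 3) and 167 ± 3.35 (SD, n = 3) differed by 0.061 with a standard error of 0.045 on the log2 scale. Relative to the median of all tested genes the difference was -0.041, so its sign depended on the scaling. The deposited confidence bounds lay within 4.01% to 4.20% of each value, the narrowest among the 6 genes. In control, 95.0% of all tested genes had a lower mean FPKM.

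ATP1B1, the beta-1 subunit, is usually the main beta isoform of transporting epithelia. It lies on chromosome 16 from 37568415 to 37593958, and 184 bp at its upper coordinate are shared with NME7. Its FPKM was 35.2, 31.2 and 32.8 in control and 31.3, 29.1 and 21.7 after butyrate. Only butyrate replicates 2 and 3 were below all controls, so the groups overlapped. Mean FPKM was 33.0 ± 2.03 (SD, n = 3) in control and 27.4 ± 5.04 (SD, n = 3) after butyrate, a difference of -0.29 with a standard error of 0.13 on the log2 scale. Without butyrate replicate 3 the difference was -0.13. The confidence bounds lay within 22.9% to 30.6% of the value. NME7 had a difference of 0.57 in the opposite direction (limma, adjusted p = 0.000170), and reads in the shared bases cannot be told apart where strand was not used.

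ATP1B2, the beta-2 subunit, is best known from glia and neurons, where it was described as the adhesion molecule AMOG. It lies on chromosome 19 from 27973557 to 27980251 and shares no bases with another entry. Its FPKM was 0.0710, 0.115 and 0 in control and 4.64, 8.81 and 4.96 after butyrate. Every butyrate culture was above every control culture. Butyrate replicate 2 stood apart from the other two, since its confidence bounds, 6.99 to 10.6, began above the upper bounds of 5.91 and 6.36 in replicates 1 and 3. The difference was 5.28 with a standard error of 0.37 on the log2 scale, and 28 of the 15813 tested genes had a larger one. The size depends on control values near 0, and the ratio of mean FPKM was 99.2. A more cautious figure comes from the bounds: the lowest lower bound after butyrate was 8.33 times the highest upper bound in control.

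Neuronal and glial markers also had higher values in the butyrate cultures, and their part in the ATP1B2 values was not tested. Of 6 neuronal markers, all 4 that could be tested passed as higher, and the list summed to 115 to 122 FPKM in control and 254 to 276 after butyrate, nearly all of it TUBB3, while ELAVL4 was listed at 0 in every butyrate culture. Of 5 glial markers, 1 of 2 tested, S100B, passed as higher, the list summed to 7.36 to 9.52 and to 21.2 to 23.5 FPKM, and the defining gene AQP4 was listed at 0 in all 6 cultures. Over all tested genes 32.5% passed as higher.

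The make-up of the beta transcripts can be read from these values. Of the summed FPKM of ATP1B1, ATP1B2 and ATP1B3, ATP1B2 took 0.0370%, 0.0609% and 0% in control against 2.27%, 4.23% and 2.61% after butyrate. Its share was small also after butyrate, at 3.04% ± 1.05 (SD, n = 3). ATP1B3 held 82.9% ± 1.11 (SD, n = 3) of the beta transcripts in control and 83.4% ± 2.29 (SD, n = 3) after butyrate, and ATP1B1 went from 17.1% ± 1.11 (SD, n = 3) to 13.6% ± 2.01 (SD, n = 3). The groups did not overlap for the shares of ATP1B1 and ATP1B2 and overlapped for that of ATP1B3. The scaling of a library cancels in such a share. ATP1B4, a muscle-associated relative, was at most 0.0190 FPKM.

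**Figure D2:**
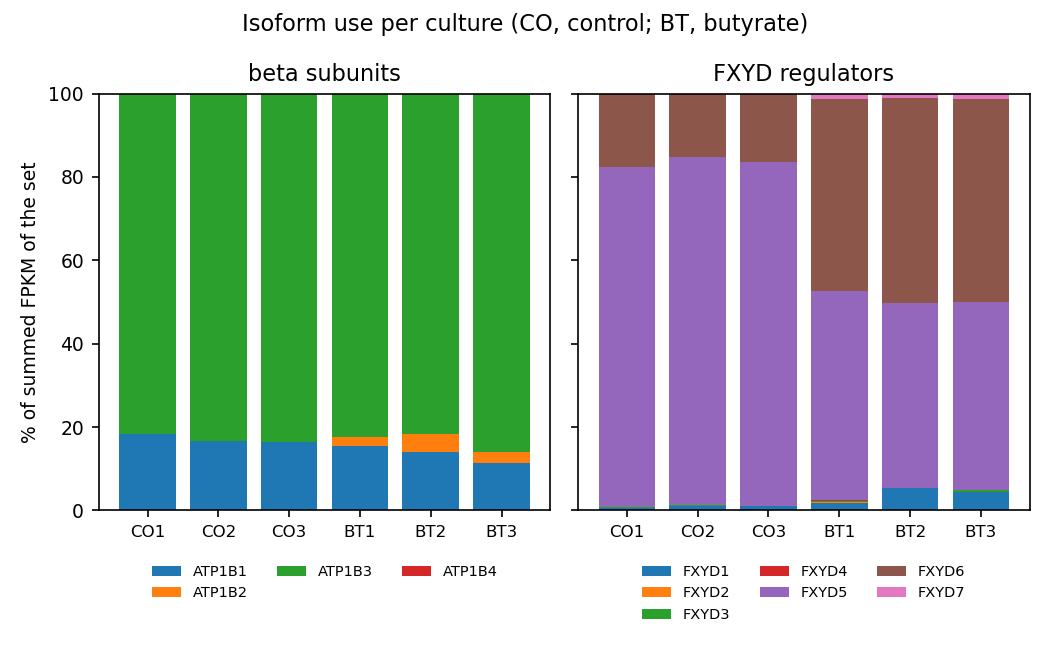
Share of each gene in the summed FPKM of its set (vertical axis, percent) for each culture (horizontal axis; CO, control; BT, butyrate; the number is the replicate), with a panel each for beta subunits and FXYD regulators. ATP1B3 fills most of the beta set in all 6 cultures, while FXYD6 goes from 16.5% to 47.9% of the FXYD set.

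SLC9A2, an exchanger of the apical membrane of gut epithelia also called NHE2, lies on chromosome 11 from 7324757 to 7416778. It was listed at 0 in all 3 control cultures and at 0.0486, 0.0962 and 0.194 FPKM after butyrate, so the groups did not overlap but all values were near the limit of detection. If the confidence bounds lie 2 standard deviations from the value, they correspond to 2.0, 4.0 and 8.0 fragments in butyrate replicates 1 to 3. No fold is given against a group listed at 0. SLC9A3, the apical exchanger NHE3 that takes up sodium in intestine and kidney, lies on chromosome 20 from 71723574 to 71761588. Its FPKM was 0.121, 0.165 and 0.0527 in control and 0, 0.0514 and 0.0587 after butyrate. The groups overlapped and the lower confidence bound was 0 in every culture, so no difference was detectable at this depth. The means of 0.0565 and 0.0748 FPKM over all cultures kept SLC9A2 and SLC9A3 out of the test, which required at least 0.1.

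SLC9A3R1 lies on chromosome 19 from 57270434 to 57287588, and 250 bp at its lower coordinate are shared with NAT9, whose FPKM was at most 8.34. NAT9 had a difference of 0.46 in the same direction (limma, adjusted p = 0.0352). Reads in the shared bases cannot be told apart where strand was not used. The FPKM of SLC9A3R1 was 56.5, 56.2 and 62.2 in control and 90.5, 98.1 and 88.3 after butyrate. All 3 butyrate values were above all controls, and also the lowest lower bound after butyrate was 1.20 times the highest upper bound in control. The mean went from 58.3 ± 3.37 (SD, n = 3) to 92.3 ± 5.14 (SD, n = 3), a ratio of 1.58, with a difference of 0.66 and a standard error of 0.06 on the log2 scale. The scaffold was thus present at many times the FPKM of the exchanger it is named after.

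Of the 6 genes, 4 passed the filter on low values. A Benjamini-Hochberg adjusted p under 0.05 from limma was reached by 2 of these 4, ATP1B2 and SLC9A3R1, both higher after butyrate, where 58.4% of all tested genes were called, 32.5% higher and 25.9% lower. Under the stricter rule, which asked for a log2 difference beyond 2 and Bonferroni adjustment in place of Benjamini-Hochberg, only ATP1B2 was called, where 2.46% of all tested genes were called higher and 1.51% lower. Among all tested genes the 3 butyrate values lay above the 3 control values in 36.1% and below them in 28.9%. Since the 6 genes were chosen on this comparison, their counts are descriptions only.

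The genes closest to each of the 6 in their profile were found among 13227 tested and named genes, by the Euclidean distance over the 6 log2(FPKM + 0.1) values. LGI3 and NTF4 were closest to ATP1B2, at distances of 1.02 and 1.06, with mean FPKM going from 0.0369 to 5.19 and from 0.0681 to 5.22. NFE2L2 and CD59 were closest to SLC9A3R1 at 0.15 and 0.20, and PFKP and MMADHC to ATP1B3 at 0.16 and 0.18. PDF and ARHGEF1 were closest to ATP1B1 at 0.31 and 0.37. For the exchangers with values near 0, COL6A3 and KLK6 were closest to SLC9A2 and LRRTM4 and ADCY4 to SLC9A3, at 0.84 to 1.05. This distance takes in both the level and the group difference, and none of these genes was on the list of related transport genes.

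The beta subunits act in the pump with partner proteins, so a list of 55 other genes of the pump, the exchangers and related sodium transport was tested across the whole table. Of these, 53 were found, 38 were tested, 19 were higher and 5 lower after butyrate (limma, Benjamini-Hochberg adjusted p under 0.05), and 14 did not pass. The shares of 50.0% higher and 13.2% lower stand beside 32.5% and 25.9% over all tested genes, and the median difference of 0.54 beside 0.10. Under the stricter rule SLC9A3R2 and FXYD7 were called higher and ATP4B lower. Of the genes named below, FXYD6, SLC9A8, SLC9A9, EZR, TESC, SLC8A1, NKAIN2 and NKAIN3 overlap another listed entry, with which reads may be shared.

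**Figure D3:**
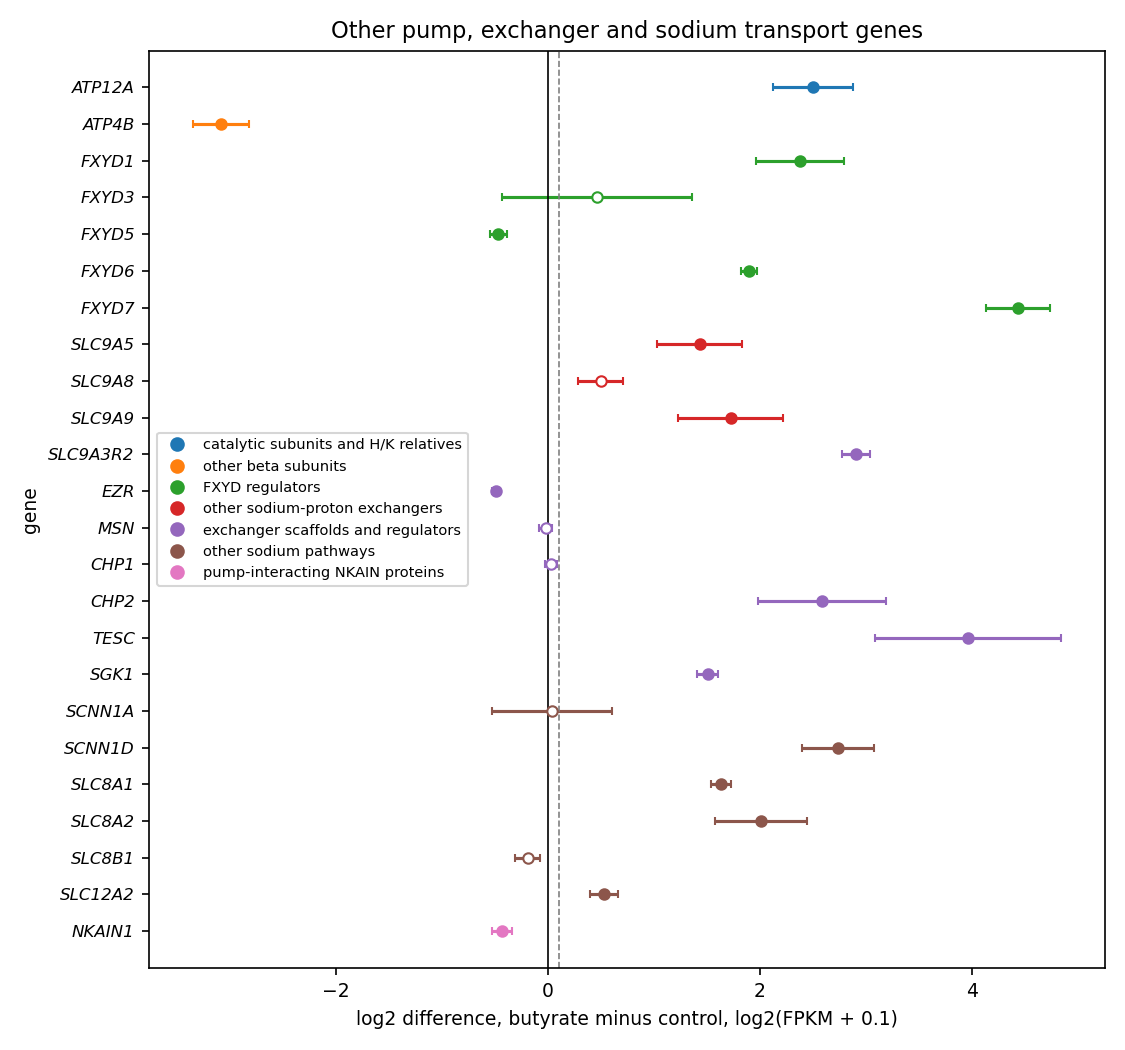
Difference in log2(FPKM + 0.1) between butyrate and control (horizontal axis) for the 24 tested genes of the list that are named in the text (vertical axis), with bars of 1 standard error from limma. Colors mark the groups of the list, filled points have an adjusted p under 0.05, and the dashed line is the median of all tested genes at 0.10. Most filled points lie to the right, with ATP4B, FXYD5, EZR and NKAIN1 to the left.

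Among the related hydrogen-potassium pumps, the non-gastric catalytic subunit ATP12A rose from at most 0.0278 FPKM to 0.462 to 0.569, with a difference of 2.50 (limma, adjusted p = 0.000513). ATP4B, the beta subunit of the gastric pump, fell from 4.02, 2.71 and 4.20 to 0.242, 0.411 and 0.368 FPKM, a difference of -3.08 with a standard error of 0.27 on the log2 scale (limma, adjusted p = 1.77e-05). Its catalytic partner ATP4A was listed at 0 in all but 1 culture.

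Of the FXYD regulators, 3 of 5 tested members were higher and 1 was lower, where 32.5% and 25.9% of all tested genes were. FXYD5, or dysadherin, was the most abundant and fell from 104, 104 and 110 to 87.6, 71.9 and 71.7 FPKM (limma, adjusted p = 0.00105). FXYD6, a regulator best studied in brain and inner ear, rose from 22.6, 19.2 and 21.9 to 80.3, 79.6 and 77.5 FPKM, a ratio of 3.72 (limma, adjusted p = 1.93e-07). Both genes thus reached similar levels after butyrate, and FXYD5 went from 82.5% ± 0.876 (SD, n = 3) to 46.5% ± 3.16 (SD, n = 3) of the FXYD transcripts. FXYD7, found mainly in brain, was listed at 0 in all controls and at 2.35, 1.91 and 1.94 FPKM after butyrate (limma, adjusted p = 4.00e-06). FXYD1, or phospholemman, rose from 0.607, 1.31 and 1.35 to 3.06, 8.72 and 7.16 FPKM (limma, adjusted p = 0.00122). FXYD3 had values of 0 in both groups and did not pass the test, while FXYD2 and FXYD4 were above 0 in butyrate replicate 1 only.

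**Figure D4:**
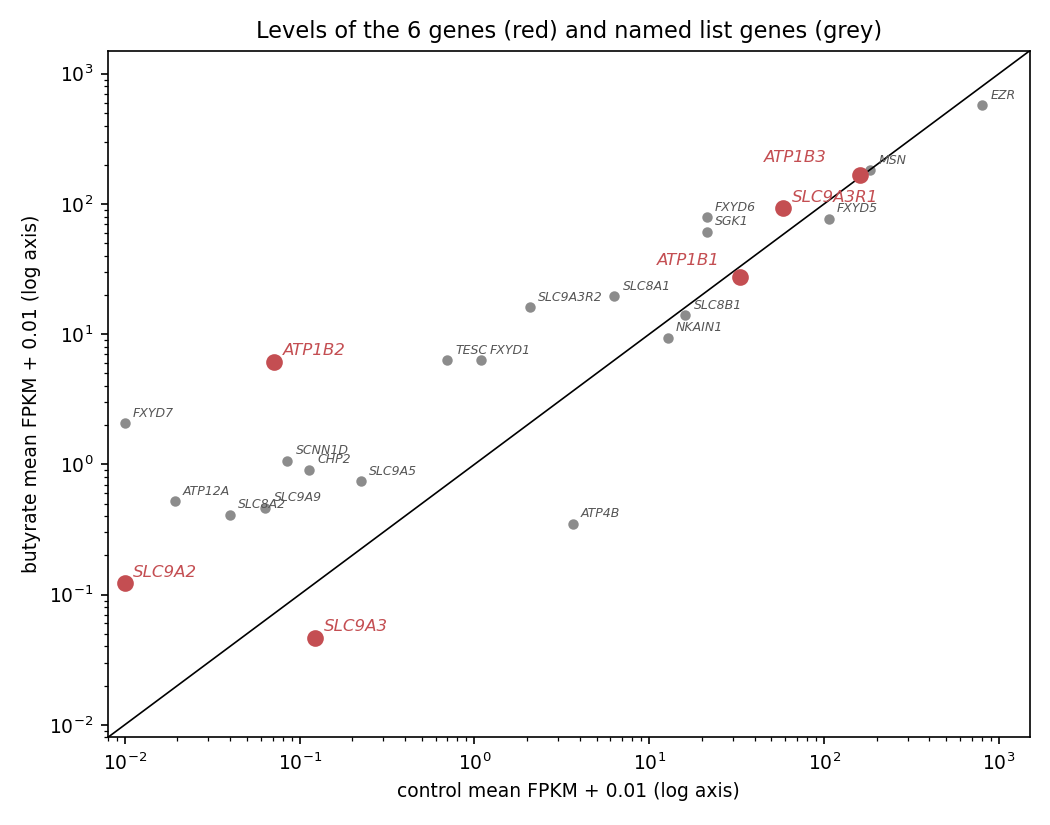
Mean FPKM plus 0.01 in control (horizontal log axis) against mean FPKM plus 0.01 after butyrate (vertical log axis) for the 6 genes (red) and tested list genes that had a large difference or were the most abundant of their group (grey). The diagonal marks equal levels, and ATP1B2 and FXYD7 lie far above it while ATP1B1 and ATP1B3 lie close to it.

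Of the 7 other exchangers tested, 3 were higher and none was lower. The share of 42.9% higher was near the 32.5% of all tested genes, of which 25.9% were lower. SLC9A5 and SLC9A9 rose from low levels, to 0.738 ± 0.283 (SD, n = 3) and 0.455 ± 0.275 (SD, n = 3) FPKM (limma, adjusted p = 0.0141 and 0.0157). Without butyrate replicate 2 their adjusted p from limma was 0.0548 and 0.0564, and without butyrate replicate 3 that of SLC9A9 was 0.0505. The Golgi exchanger SLC9A8 had 3.98 ± 1.01 (SD, n = 3) and 5.63 ± 1.16 (SD, n = 3) FPKM and did not pass (limma, adjusted p = 0.0739).

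Of the scaffolds and regulators of the exchangers, the group with the most tested genes, 7 of 11 were higher and 1 was lower. These shares of 63.6% and 9.09% stand beside 32.5% and 25.9% over all tested genes. The share of higher genes was similar among the FXYD regulators, at 60.0%. SLC9A3R2, or NHERF2, the closest relative of SLC9A3R1, rose from 2.33, 2.15 and 1.72 to 16.4, 16.0 and 15.7 FPKM, a ratio of 7.75 with a difference of 2.91 and a standard error of 0.13 (limma, adjusted p = 4.86e-07). SLC9A3R1 was the more abundant by 24.2 to 36.1 times in control and by 5.53 to 6.15 times after butyrate. EZR, which encodes the ezrin that the scaffold binds, was far more abundant at 805 ± 14.1 (SD, n = 3) FPKM and fell to 573 ± 21.0 (SD, n = 3) (limma, adjusted p = 9.08e-06). MSN, its relative moesin, had 183 ± 6.56 (SD, n = 3) and 181 ± 12.6 (SD, n = 3) FPKM and did not pass. SGK1, a kinase that raises sodium transport and acts on NHE3 through NHERF2, rose from 22.1, 19.4 and 22.6 to 56.0, 69.8 and 57.5 FPKM (limma, adjusted p = 3.33e-06). The calcineurin-like cofactors CHP2 and TESC rose to 0.902 ± 0.320 (SD, n = 3) and 6.30 ± 1.22 (SD, n = 3) FPKM (limma, adjusted p = 0.00572 and 0.00446). Their control values were 0, 0 and 0.312 for CHP2 and a widely spread 1.81, 0.247 and 0 for TESC. The difference of TESC was 5.08 without control replicate 1 and 2.95 without control replicate 3. CHP1, a related cofactor, had means of 54.3 and 55.4 FPKM and did not pass.

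Of 10 tested genes for other sodium routes, 4 were higher and none was lower. The share of 40.0% higher was near the 32.5% of all tested genes, of which 25.9% were lower. SLC8A1, the sodium-calcium exchanger NCX1, rose from 6.55, 5.85 and 6.47 to 21.1, 18.7 and 19.3 FPKM (limma, adjusted p = 1.50e-06), and SLC8A2 from at most 0.0900 to 0.322 to 0.449 FPKM (limma, adjusted p = 0.00398). SCNN1D, the delta subunit of the epithelial sodium channel, rose to 1.06 ± 0.194 (SD, n = 3) from 0.0752 ± 0.0400 (SD, n = 3) FPKM (limma, adjusted p = 0.000149). The channel's other subunits SCNN1A, SCNN1B and SCNN1G were at or below 0.244 FPKM in every culture. The remaining one was SLC12A2, the sodium-potassium-chloride cotransporter NKCC1, at 4.59 ± 0.488 (SD, n = 3) and 6.64 ± 0.669 (SD, n = 3) FPKM (limma, adjusted p = 0.00843). SLC8B1, a mitochondrial exchanger, had 16.1 ± 2.32 (SD, n = 3) and 14.0 ± 1.24 (SD, n = 3) FPKM and did not pass. NKAIN1, whose protein binds the pump's beta-1 subunit, fell from 12.4, 11.9 and 13.9 to 9.00, 9.94 and 9.26 FPKM (limma, adjusted p = 0.00433), and NKAIN2 and NKAIN3 were listed at 0 throughout.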

How the data were processed

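RNA of 6 REPC cultures (RIN 9.0) was sequenced as paired reads of 150 bp. Per the labels and the methods of the study, the authors trimmed reads with Trim Galore 0.4.1, aligned them with STAR, kept uniquely mapped reads and deposited gene-level FPKM with confidence bounds from Cufflinks, with the build UMD3.1 in the submitters' processing notes. Whether strand was used is not given in the sources used here. Chromosomes were assigned through gene names in the supplementary gene tables of the study, with 839 of 841 named genes on the assigned chromosome. Coordinates are as listed.

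Entries were joined by position, and 2 genes with a failed estimate were left out of the tests. On log2(FPKM + 0.1), limma (3.58.1, R 4.3.3) with a trended prior variance fitted all 15813 genes whose FPKM averaged 0.1 or more, and p-values were adjusted by Benjamini-Hochberg over all of them unless Bonferroni is named. A count test does not suit FPKM and was left out, and depth per culture is unknown. Because the cultures share 1 calf, p-values measure only the spread between these cultures. The test was tried on simulated data. A name on several entries was taken at its highest mean FPKM.

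Named are the 6 genes, list genes with an adjusted p under 0.05 and a difference beyond 1, the 2 most abundant genes of each list group, and the 2 nearest profiles of each of the 6. ATP4A, FXYD2 to FXYD4, SLC9A8, CHP1, SLC12A2, SCNN1A, SCNN1B, SCNN1G and NKAIN3 were named after their values were seen. Results for some genes of these lists are not reported here. The members and lists were chosen with earlier results of these data known. Alternatives were other pseudocounts, filters and scalings, no trend, a replicate block and each culture left out.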

Additional observations from a re-analysis of the deposited data

How the results depend on the processing

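ATP1B2 kept its direction under every alternative run, with a difference of 6.98 at a pseudocount of 0.01, 2.70 at 1 and 6.63 as the ratio of group means, and 4.96 to 5.51 with a culture left out. ATP1B3 went from 0.061 to 0.18 with FPKM rescaled to a common sum and to -0.041 with median centring. SLC9A3R1 was 0.79 and 0.56 under the same scalings. SLC9A2, at 1.03, was 3.44 at a pseudocount of 0.01, 0.15 at 1 and 1.40 rescaled, and SLC9A3, at -0.63, was -1.70, -0.10 and, as the ratio of group means, -1.62. The median difference of all tested genes was 0.10, and 0.22 rescaled.

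List genes higher after butyrate went from 19 to 12 where the minimum mean FPKM was 1, which left 24 tested, were 17 with median centring, and ranged from 16 to 20 with a culture left out, while 5 or 6 were lower. Over all genes, those called by the stricter rule went from 389 higher to 226 with the replicate block, 213 without a filter and 213 without the trend, and from 238 lower to 141 without the trend. They ranged from 156 to 337 and from 163 to 201 with a culture left out, the 3 lowest counts of higher genes, 166, 156 and 166, being those without butyrate replicate 1, 2 and 3. The cause was not tested. Same-numbered cultures deviated together with correlations of 0.0228, -0.00431 and 0.00177, and not every culture correlated best with its own number, so the numbers were not used as pairs. With the replicate block 18 list genes were higher and 5 lower. Of 314 values of 23 named list genes, 14 lost the call and none changed direction.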

Other observations

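Markers of simple epithelia were higher after butyrate, as were 32.5% of all tested genes. All 5, the keratins KRT8, KRT18 and KRT19, the adhesion molecule EPCAM and the tight junction protein CLDN4, passed the test (limma, Benjamini-Hochberg adjusted p under 0.05), and their summed FPKM was 1879 to 2004 in control and 4188 to 4210 after butyrate. KRT19 went from 492 ± 11.5 (SD, n = 3) to 1953 ± 31.2 (SD, n = 3) FPKM. Of 5 endothelial markers, both that were tested, PECAM1 and VWF, were higher, the list summed to 1.97 to 2.16 and to 6.48 to 8.43 FPKM, and CDH5 was listed at 0 in all cultures. Of 5 leukocyte markers, 1 of 2 tested, CD68, was higher, the list summed to 5.28 to 7.15 and to 7.23 to 9.38 FPKM, and PTPRC was listed at 0 in all cultures.

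SHBG, 13457 bp to the left of ATP1B2 on chromosome 19, went from 0.113, 0.311 and 0.116 to 2.30, 1.85 and 1.47 FPKM (limma, adjusted p = 0.000141). Beside SLC9A3R1, RAB37 was higher and TMEM104 lower, with differences of 1.90 and -0.41 (limma, adjusted p = 0.00345 and 0.0129). The nearest entries of ATP1B1 that share no bases with it were listed at 0 in all cultures. CEP72, the left neighbour of SLC9A3, had a difference of -3.40 (limma, adjusted p = 9.18e-05). These neighbours were looked up by position alone, and no explanation was tested.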
